A study of Mus musculus with 20 samples.

Results

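Dnajc1 and Dnajc18 encode J-domain proteins of the endoplasmic reticulum membrane, and their transcripts carry clusters of adenosines that the listed tables follow as RNA editing sites. The members described here are 95 of the 48425 sites listed in the series. They were chosen by 2 measured or annotated values: the gene named for the site is Dnajc1 or Dnajc18, and the site is covered by at least 50 reads in both libraries of at least 1 group. This gave 75 of the 77 Dnajc1 sites listed and 20 of the 26 Dnajc18 sites. In the whole series, 9065 sites meet the same coverage rule. The editing level of a site is the share of its reads that were edited, in percent, and was not part of the rule. The 2 genes were proposed with earlier results of these data known, among them the level of the Dnajc18 site at 35834187 with and without interferon in wild-type cells, so that contrast is given as a description with no test.

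The study read editing in mouse embryonic fibroblasts, cells grown out from embryos, by multiplex RT-PCR of 557 loci and sequencing of the pooled products. Here 5 lines are used, each a single line per genotype: ADAR1_WT, the wild-type reference; ADAR2_NULL, which lacks ADAR2; STAT2_NULL, which lacks STAT2; P150_KO, a knockout of the p150 form of ADAR1; and ADAR1_NULL, which lacks ADAR1. Each line was untreated or treated with interferon, which gives 10 groups of 2 libraries and 20 libraries in all. The sources used here do not give the kind, dose or duration of the interferon, and the series' text counts 6 lines, of which 1 is not analysed here. Nothing in the labels ties the 2 libraries of a group to different cultures, and their spread, on which every p-value rests, may be technical. Because 1 line stands for each genotype, a difference between genotypes and a difference between lines cannot be told apart. The assay reads editing in amplified stretches and not expression, so it does not show how much transcript or which cells were present; of 10 fibroblast marker genes, 3 have a listed site and 0 have one under the coverage rule.

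As background, J-domain proteins deliver client proteins to HSP70 chaperones and stimulate their ATPase. Dnajc1 holds the HSP70 of the endoplasmic reticulum near ribosomes at the membrane, and Dnajc18 is a membrane-anchored member of the same family. ADAR enzymes convert adenosine to inosine in double-stranded RNA, which is read as guanosine in sequencing. ADAR1 has a constitutive p110 form and a longer p150 form whose promoter responds to interferon, STAT2 is part of the transcription factor that type I interferon activates, and ADAR2 is a separate gene product. Editing of inverted repeats in 3' UTRs is a typical activity of these enzymes.

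All 95 members are annotated by the tables as 3' UTR sites, on the minus strand of both genes, in the mm9 build. They fall into 3 stretches. The first Dnajc1 stretch runs over chromosome 2, 18136178 to 18136381, and holds 42 sites. The second Dnajc1 stretch, 18136919 to 18137068, holds 33 sites. The Dnajc18 stretch lies on chromosome 18, 35834069 to 35834222, and holds 20 sites. Stretches were split where neighbouring covered sites lay over 100 bases apart, and no primer or amplicon table was used here. Sites of a stretch may share reads and are not treated as independent of each other. The 2 Dnajc1 sites and 6 Dnajc18 sites left out are intronic and had 0 reads in every library.

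Coverage was even within a stretch apart from a block in which it doubled. Total coverage over all listed sites was 4389326 to 5559674 reads per library. Member coverage was 193 to 700 reads in the first Dnajc1 stretch, 345 to 1146 in the second and 32 to 548 in the Dnajc18 stretch. Over 4, 21 and 9 sites of the 3 stretches it was 2.005 to 2.025 times that of the least covered site of the stretch. The same ratio ran from 1.0 to 1.03 at the other sites. The cause of the doubling was not tested. Just outside the threshold lay 11 Dnajc18 sites with 32 or 33 reads in the first untreated ADAR1_NULL library alone, and the lowest value just inside was 66 reads. The other 84 members had at least 50 reads in all 20 libraries.

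Levels were low at most members and high at a few. In treated wild-type cells 49 of 95 members had a mean level of at least 1%, 27 of at least 5% and 16 of at least 10%. Untreated wild-type cells had 18, 5 and 2 such members. Treated ADAR2_NULL cells had 43, 22 and 16, close to treated wild type. In treated ADAR1_NULL cells, the background for ADAR1 editing, 9 members reached 1% and 0 reached 5%, and the median member level was 0.208%. Levels well under 1% were therefore also read where ADAR1 is lacking.

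Summed over the reads of the 75 Dnajc1 sites, 1.49% and 1.21% of reads were edited in the untreated wild-type libraries and 5.15% and 6.17% in the treated ones. The ADAR2_NULL libraries read 0.895% and 0.689% untreated and 5.03% and 7.08% treated. Groups did not overlap between treatments in either line, and the treated groups of the 2 lines did overlap. The STAT2_NULL libraries spread from 0.578% to 1.78% with no gap between treatments, and the 8 libraries of P150_KO and ADAR1_NULL lay between 0.266% and 0.636%. P150_KO read 0.386% and 0.353% untreated and 0.581% and 0.632% treated, without overlap between treatments. Of the edited reads of treated P150_KO, 91 came from 18137060, which read 17.7% in the first treated library and 0.431% in the second. A P150_KO level without 18137060 was not computed, so the gap may rest on that site in the first library. ADAR1_NULL read 0.286% and 0.636% untreated and 0.577% and 0.266% treated, which overlapped and spanned all P150_KO values. For Dnajc18, over the 9 sites with at least 50 reads in all libraries, wild type read 1.16% and 0.791% untreated and 9.47% and 12.7% treated. ADAR2_NULL read 0.417% and 0.176% untreated and 4.42% and 5.02% treated. Both treated ADAR2_NULL libraries thus lay below both treated wild-type libraries for Dnajc18 and not for Dnajc1. The remaining lines read 0.0% to 1.02% at Dnajc18. These 9 sites are those of the block of doubled coverage, so 35834091 is not among them. Most of their edited reads in both treated groups came from 35834187, with 629 in wild type and 320 in ADAR2_NULL. The next site, 35834135, had 81 and 18. A level without 35834187 was not computed.

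**Figure D1:**
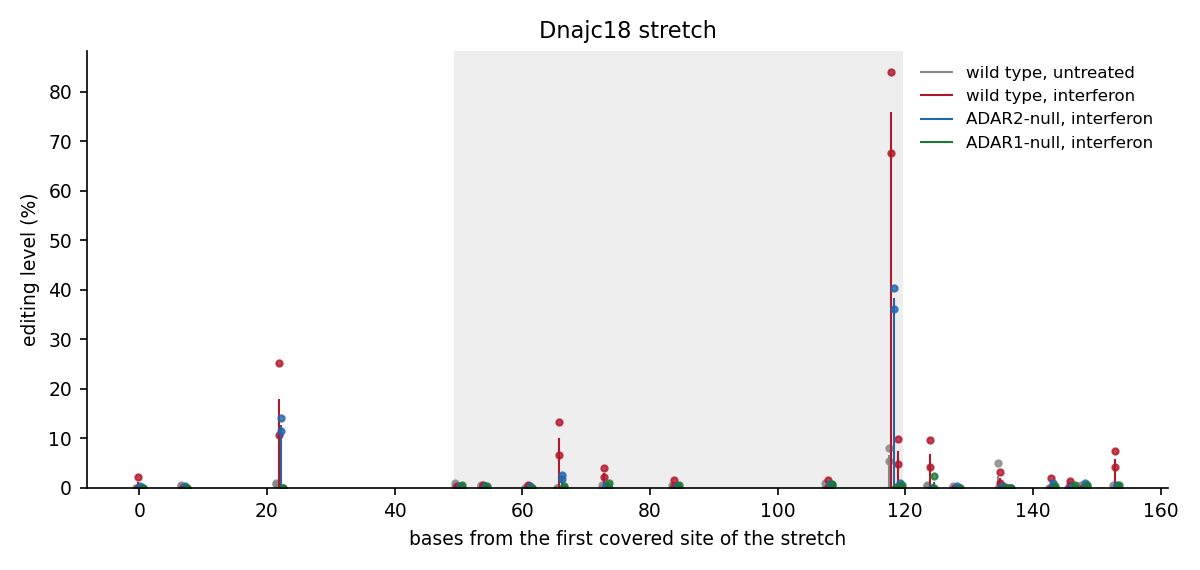
Editing level in percent of the 20 Dnajc18 sites against their distance in bases from the first covered site; points are libraries, vertical lines are group means of 2 libraries, and the grey block marks sites with doubled coverage. One site stands far above the rest, at 75.9% in treated wild-type cells and 38.2% in treated ADAR2_NULL cells.

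The site at 35834187 was the most edited member of either gene. In treated wild-type cells it read 67.7% and 84.0% (75.9% ± 11.6, SD, n = 2), from 382 to 455 reads per library. Untreated wild-type cells read 7.94% and 5.47% at the same position. Treated ADAR2_NULL cells read 36.1% and 40.4% (38.2% ± 2.98, SD, n = 2), the second highest group. The 2 treated groups did not overlap each other or any other group. Untreated STAT2_NULL cells read 5.85% and 0.0% and treated ones 0.903% and 4.90%, so the treated values lay within the untreated range. Untreated ADAR2_NULL cells read 0.833% and 0.226%, lower than either untreated wild-type library. Treated P150_KO cells had 2 edited reads of 1038 and treated ADAR1_NULL cells 1 of 884. Untreated P150_KO cells had 0 edited reads of 1026, which allows a level of up to 0.292%, and untreated ADAR1_NULL cells 0 of 506, which allows up to 0.593%. The site lies in the block of doubled coverage; if each molecule there was counted as 2 reads, the limits would be 0.585% and 1.19%. These limits rest on 3 reads over the group and cover counting error only, since reads of PCR products are not independent molecules. In order of mean level, the groups from untreated wild type through treated STAT2_NULL overlapped their neighbours, as did those from untreated ADAR2_NULL down.

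**Figure D2:**
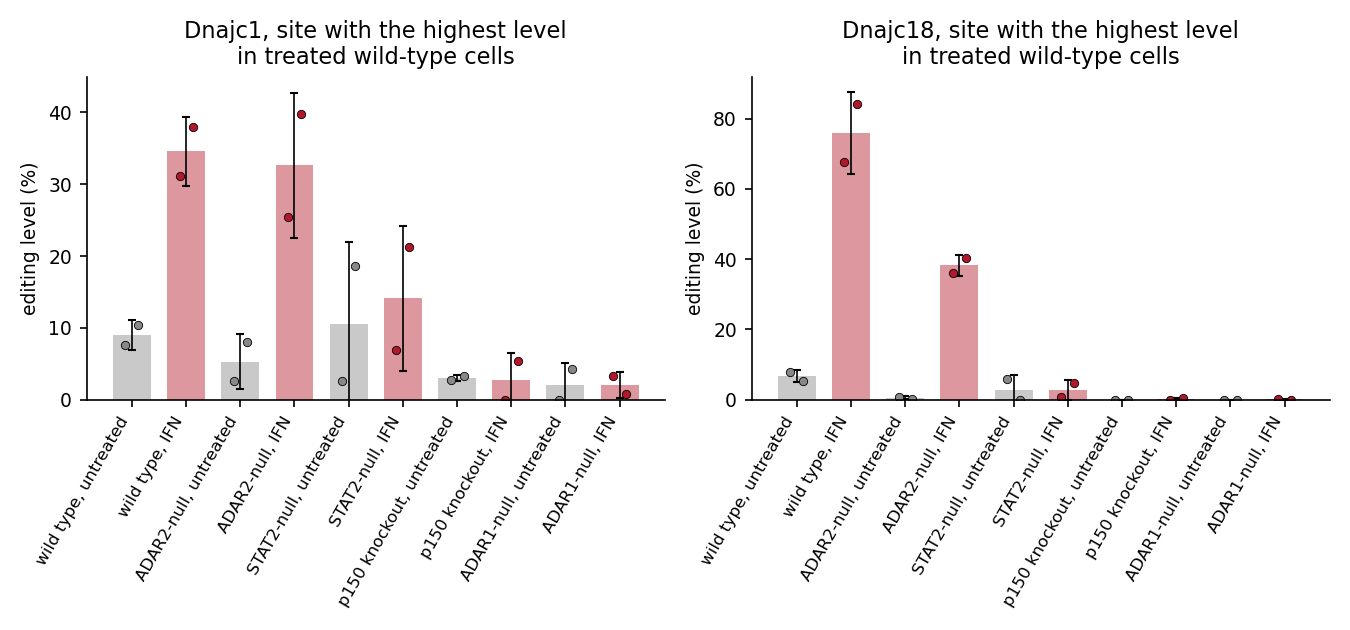
Editing level in percent of the most edited site of each gene in the 10 groups; bars are means, whiskers the SD of 2 libraries, and points the libraries, grey for untreated and red for interferon. At the Dnajc18 site treated wild type (75.9%) and treated ADAR2_NULL (38.2%) stand apart from each other, whereas at the Dnajc1 site they overlap at 34.6% and 32.7%.

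Other Dnajc18 sites followed at much lower levels. The site at 35834091 read 25.1% and 10.6% in treated wild-type cells and 11.4% and 14.1% in treated ADAR2_NULL cells, against at most 1.51% in any library of the remaining groups. At 35834135 treated wild type read 6.65% and 13.4%, and treated ADAR2_NULL only 1.82% and 2.51%. The neighbour of the leading site, 35834188, read 4.84% and 9.95% in treated wild type and 0.0% and 1.003% in treated ADAR2_NULL. Thus 1 base apart, mean levels in treated wild type differed from 75.9% to 7.39%. At 35834193 treated wild type read 9.57% and 4.19%, and all 4 ADAR2_NULL libraries had 0.0%. The site at 35834222 read 7.46% and 4.15% in treated wild type and 0.452% and 0.5% in treated ADAR2_NULL. Of the 20 Dnajc18 sites, 11 reached a mean of 1% in treated wild-type cells and 3 in treated ADAR2_NULL cells.

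**Figure D3:**
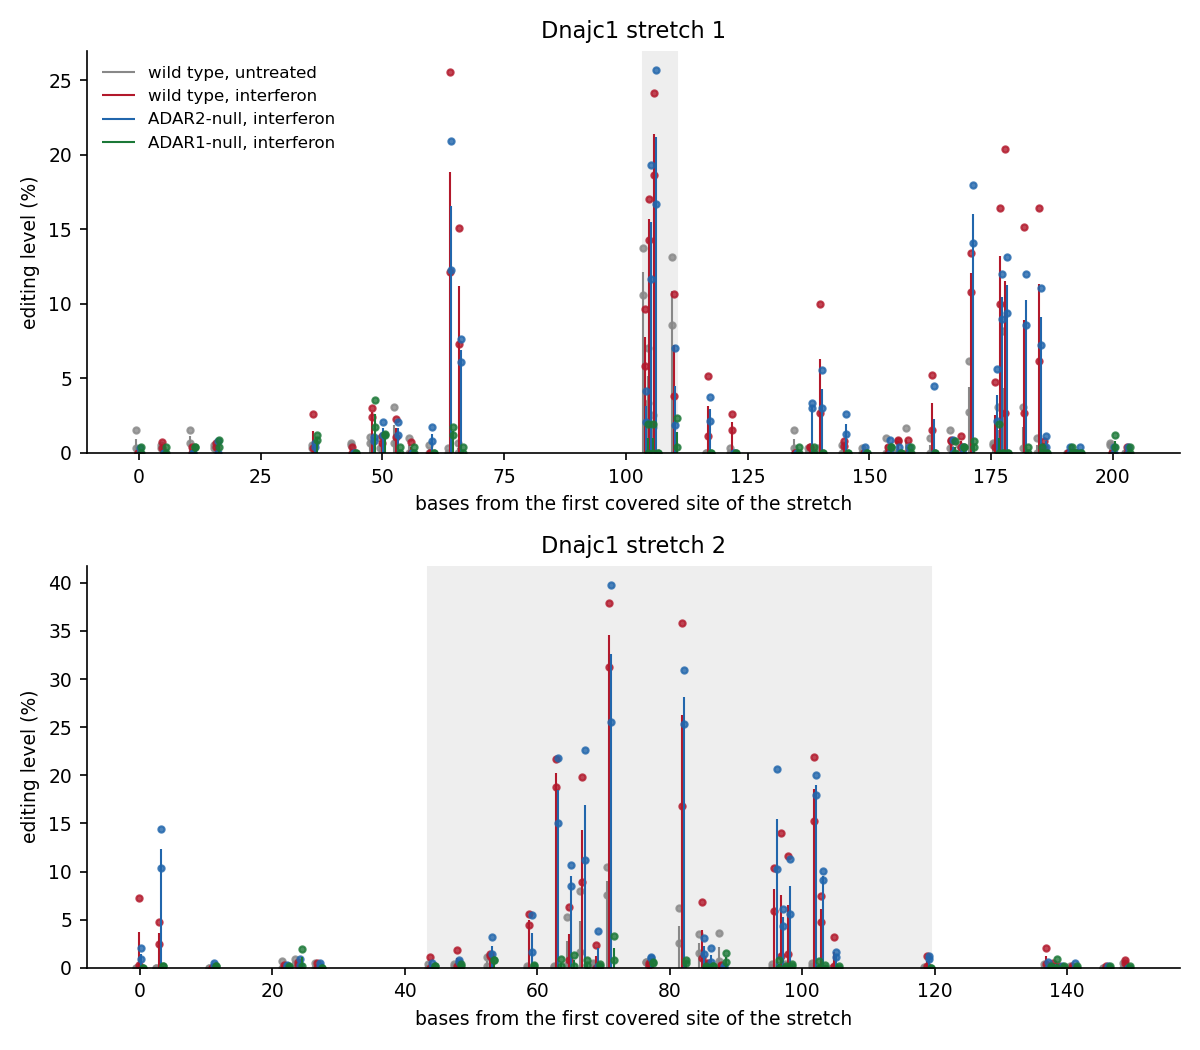
Editing level in percent of the 42 and 33 sites of the 2 Dnajc1 stretches against their distance in bases from the first covered site; points are libraries, vertical lines are means of 2 libraries, and grey blocks mark doubled coverage. Of the sites with a mean of at least 10%, 13 in treated wild type and 14 in treated ADAR2_NULL, 11 are shared, and the means of treated ADAR1_NULL stay at or under 2.63%.

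More sites were covered in Dnajc1 than in Dnajc18. In treated wild type 38 of 75 and 11 of 20 members, in that order, reached a mean of 1%. Editing of Dnajc1 had no single dominant site. The most edited, 18136990 in the second stretch, read 31.2% and 38.0% in treated wild-type cells and 25.5% and 39.8% in treated ADAR2_NULL cells. These 2 groups overlapped and lay above all others. Next in order came STAT2_NULL, with 6.92% and 21.3% treated and 2.58% and 18.6% untreated, and untreated wild type with 7.56% and 10.5%. Untreated ADAR2_NULL read 2.57% and 7.99%, and P150_KO read 2.73% and 3.30% untreated and 0.0% and 5.39% treated. ADAR1_NULL was lowest, with 0.0% and 4.22% untreated and 3.32% and 0.825% treated. From treated STAT2_NULL down, each group overlapped its neighbour in this order.

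Around this site lay a run of strongly edited positions. At 18136982 untreated wild type read 0.226% and 0.0873% and treated wild type 18.8% and 21.7%. Treated ADAR2_NULL cells read 15.0% and 21.8% there. The site at 18137001 read 6.21% and 2.53% untreated and 16.8% and 35.8% treated in wild type, and at 18137021 the values were 0.452% and 0.175%, then 15.3% and 21.9%. In the first stretch, 18136242 read 0.0% and 0.344% untreated and 25.6% and 12.2% treated in wild type. Also there, 18136284 read 2.57% and 1.72% untreated and 24.1% and 18.6% treated. None of these pairs of groups overlapped, although the 2 treated wild-type libraries lay far apart at 18136242 and 18137001. The sites were named for their high levels in treated wild type, which favours such a gap, and the share over all sites was not computed. Other edited sites did overlap: 18136356 read 0.513% and 8.19% untreated and 20.3% and 2.69% treated in wild type.

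A pair of sites in the block of doubled coverage was as high in untreated as in treated wild-type cells, and neither difference was called. The site at 18136282 read 10.6% and 13.7% untreated and 9.68% and 5.84% treated, and 18136288 read 13.1% and 8.56% untreated and 10.7% and 3.83% treated. Treated libraries overlapped untreated ones at 18136288 and lay below them at 18136282. At 18136283, the next base, wild type read 3.34% and 7.02% untreated and 14.3% and 17.03% treated, which was not called either (adjusted p = 0.259, edgeR). In untreated ADAR2_NULL cells 18136282 read 3.78% and 0.0% and 18136288 read 0.943% and 0.0%, below both untreated wild-type libraries.

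Interferon was compared with no treatment in each line with the quasi-likelihood test of edgeR, adjusted by Benjamini-Hochberg over all sites tested. The test took sites with 50 or more reads in each library compared whose mean level over those libraries was 1% or more, and a site was called at an adjusted p under 0.05. A site can pass this filter on its level in 1 group alone, so the counts over tested members describe them and lend no support to a difference. In wild-type cells 41 of the 95 members were tested; 20 rose and 0 fell, 15 of 33 in Dnajc1 and 5 of 8 in Dnajc18. These counts include the site at 35834187, whose contrast was known; without it 19 of 40 rose, 4 of 7 in Dnajc18. Of all 1223 sites tested in that comparison, 41.0% were called. The median difference was 6.46 points over the members, 6.35 points without that site and 5.27 points over all sites tested. The share of members called was thus near that of all sites.

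The Dnajc1 rise with the smallest adjusted p was at 18136982, by 20.1 ± 1.47 points (SE; adjusted p = 0.0005, edgeR), and it was called without any 1 of the 4 libraries. The rise at 18137021 was 18.3 ± 3.34 points (adjusted p = 0.0018, edgeR), at 18136242 it was 18.7 ± 6.71 points (adjusted p = 0.00236, edgeR), and at 18137022 it was 6.08 ± 1.36 points (adjusted p = 0.00168, edgeR). All 3 were called without any 1 library. Dnajc18 35834135 rose by 10.02 ± 3.37 points (adjusted p = 0.00296, edgeR), also without any 1 library. Over all alternatives, by edgeR or limma, adjusted p reached 0.0605 at 35834135 and 0.0646 at 18136242. Neither of these 2 calls thus held in every alternative. Dnajc18 35834091 rose by 16.98 points (adjusted p = 0.0112, edgeR), a call lost without untreated replicate 2 (adjusted p = 0.0637), within 0.00184 to 0.0839 over all alternatives. The difference at Dnajc1 18136990, 25.6 points, did not pass (adjusted p = 0.197, edgeR). Leaving out either untreated wild-type library left 12 members called, and a fit of only the 2 groups left 3.

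In ADAR2_NULL cells 38 members were tested, of which 16 rose and 0 fell: 14 of 35 in Dnajc1 and 2 of 3 in Dnajc18. The share called among all 1145 sites was 52.3%, above that of the members, and the medians were 6.25 points for members and 4.78 points for all sites. Dnajc18 35834187 rose by 37.7 ± 2.13 points (adjusted p = 0.0012, edgeR) and 35834091 by 12.7 ± 1.33 points (adjusted p = 0.00151, edgeR), each called without any 1 library. In Dnajc1, 18136982 rose by 18.2 ± 3.41 points, 18137022 by 9.56 ± 0.451 and 18136922 by 12.3 ± 2.03 points, all called without any 1 library. The last site read 0.235% and 0.0% untreated and 10.4% and 14.4% treated. Without untreated ADAR2_NULL replicate 2, 10 members were called. The rises in wild type and ADAR2_NULL shared 12 sites, 60% of the wild-type list and 75% of the ADAR2_NULL list, among 33 tested in both. Without 35834187 they shared 11, of 19 in wild type and 15 in ADAR2_NULL.

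In the 3 remaining lines interferon gave no member call. Of 17 members tested in STAT2_NULL, 0 were called by edgeR and 1 had an unadjusted p under 0.05, and the share of all sites called was 0.0%. Of 5 tested in P150_KO, 0 were called and 2 had an unadjusted p under 0.05, beside 1.65% of all sites. Of 3 tested in ADAR1_NULL, 0 were called and 1 had an unadjusted p under 0.05, beside 0.0% of all sites. limma called 0 members in each of these lines too. The medians over members were -0.295, 2.88 and -0.0367 points. In P150_KO 1 member was called without treated replicate 1 and 2 without treated replicate 2. The few members tested leave most of them outside these comparisons, since their levels were under 1%.

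**Figure D4:**
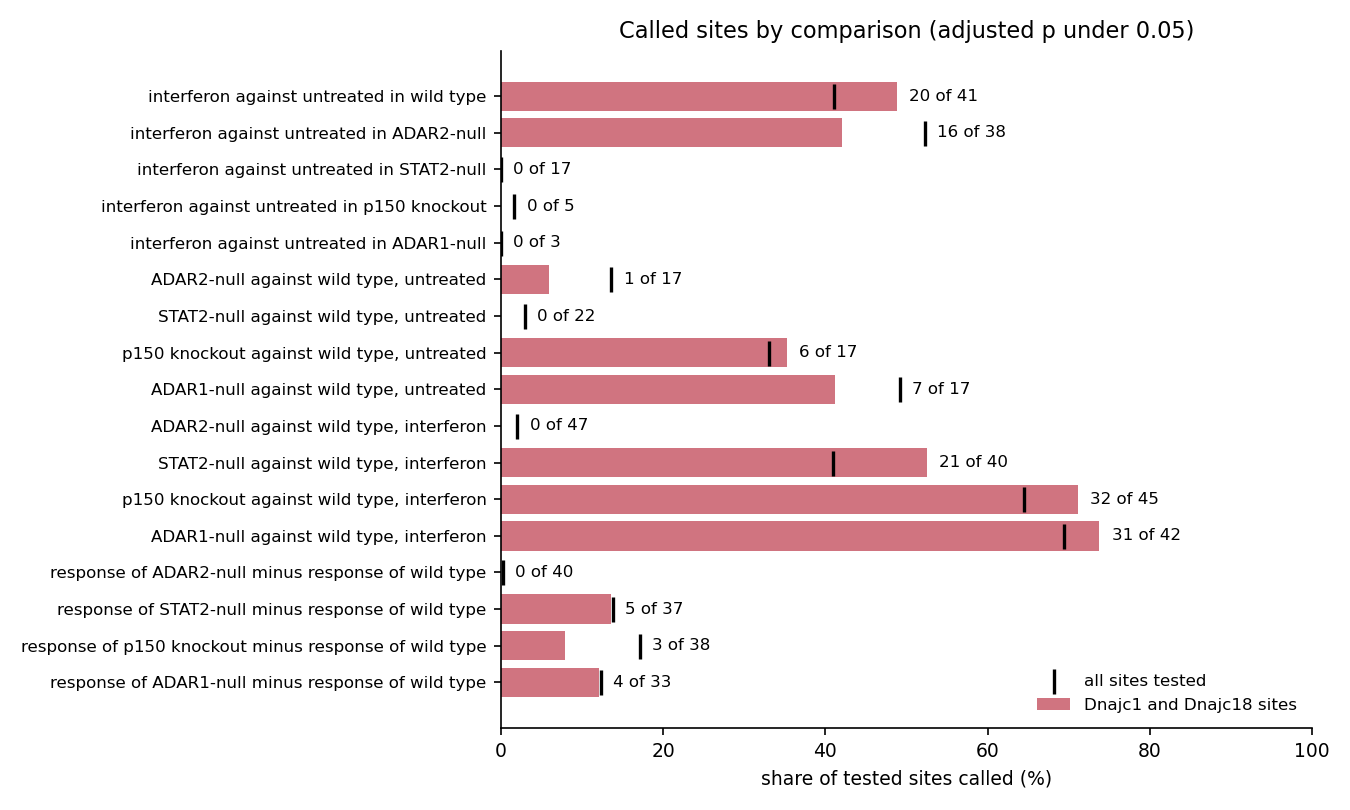
Share of tested sites called, in percent, for Dnajc1 and Dnajc18 sites (bars, with counts) and for all sites tested (black marks), in the 17 comparisons. Some bars lie near their marks, for example 20 of 41 members (19 of 40 without the site at 35834187) beside 41.0% of all sites for interferon in wild type. Others lie apart on either side. An example is 16 of 38 beside 52.3% for interferon in ADAR2_NULL. Another is 21 of 40 (20 of 39 without 35834187) beside 40.9% for treated STAT2_NULL against wild type.

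Among treated cells, ADAR2_NULL differed from wild type at 0 of 47 members tested by edgeR's adjusted p, and 5 had an unadjusted p under 0.05; 2.0% of all sites were called. limma called 2 members, both lower. Dnajc1 and Dnajc18 differed in how their libraries lay. At 7 of 8 Dnajc18 sites tested both ADAR2_NULL libraries were below both wild-type libraries, 0 were above and 1 overlapped, with a median difference of -6.10 points. At Dnajc1 this held for 3 of 39 sites, 8 were above and 28 overlapped, with a median of -0.234 points. Over all sites tested 33.5% had both ADAR2_NULL libraries below, and the median was -1.88 points. The share of all sites with both above was not computed, so the 8 Dnajc1 sites above have nothing to be set against. The tested Dnajc18 sites 35834142, 35834188, 35834193, 35834204 and 35834222 had means of at most 0.501% in treated ADAR2_NULL. They passed the 1% filter only through wild type, which favoured a lower ADAR2_NULL level there. The Dnajc18 sites lie in 1 stretch and this split of the genes was seen in the data, so it is a description.

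Single Dnajc18 differences in that comparison stayed above the threshold. At 35834187 the difference was -37.6 ± 8.44 points (adjusted p = 0.432, edgeR), with the wild-type libraries themselves at 67.7% and 84.0%. At 35834193 it was -6.88 ± 2.69 points (adjusted p = 0.0983, edgeR; 0.019 by limma, within 0.019 to 0.399 over all alternatives). The difference between the 2 lines' responses to interferon was called at 0 of 40 members by edgeR, with 0 at an unadjusted p under 0.05, and limma likewise called 0, beside 0.175% of all sites. Treated wild type and treated ADAR2_NULL were therefore not distinguished at any single member by edgeR's test, which does not show that they are alike.

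**Figure D5:**
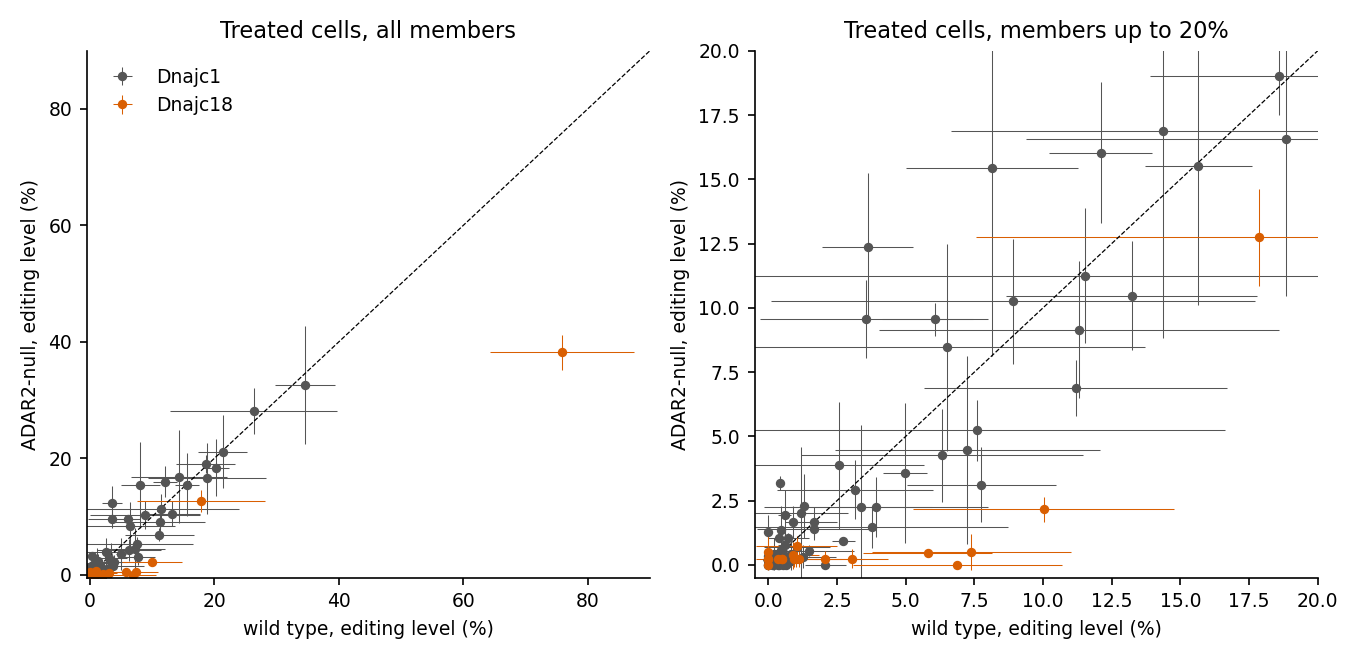
Mean editing level in treated ADAR2_NULL cells against that in treated wild-type cells, both in percent, for the 95 members, with SD whiskers over 2 libraries; the right panel enlarges levels up to 20% and the dashed line marks equal levels. Of the 20 Dnajc18 sites 16 lie under the line, 1 on it and 3 above it, these 3 at 0.0% in wild type and at most 0.5% in ADAR2_NULL; of the 75 Dnajc1 sites 38 lie under it, 2 on it and 35 above.

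Treated STAT2_NULL cells were less edited than treated wild-type cells at many members. Of 40 members tested, 0 were higher and 21 lower, 15 of 32 in Dnajc1 and 6 of 8 in Dnajc18, beside 40.9% of all sites called. Without 35834187, whose wild-type level was known, 20 of 39 were lower, 5 of 7 in Dnajc18. Dnajc18 35834187 is given above; 35834091 had 0.0% in both treated STAT2_NULL libraries and differed by -17.8 ± 7.26 points (adjusted p = 0.00169, edgeR). Dnajc1 18136242 also read 0.0% in both and differed by -18.9 ± 6.71 points (adjusted p = 0.000991, edgeR). Both calls held without any 1 library. At 18136982 treated STAT2_NULL read 0.956% and 6.41%, a difference of -16.5 ± 3.10 points (adjusted p = 0.0386, edgeR) that was not called without treated wild-type replicate 2 or STAT2_NULL replicate 1, within 0.0188 to 0.287 over all alternatives. The member count was 7 without treated STAT2_NULL replicate 1, 8 without replicate 2, and 12 with only the 2 groups in the fit.

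The lines without p150 were also less edited than wild type after treatment. Treated P150_KO cells had 31 lower and 1 higher of 45 members tested, beside 64.5% of all sites called. All 7 Dnajc18 calls were lower, of 8 tested. At Dnajc1 18137001 treated P150_KO read 0.0% and 0.431% and differed from wild type by -26.1 ± 9.51 points (adjusted p = 0.000437, edgeR), and at 18136982 it read 0.300% and 0.431% and differed by -19.9 ± 1.47 points (adjusted p = 0.000375, edgeR). These calls held without any 1 library. The member called higher, 18137060, read 17.7% in the first treated P150_KO library and 0.431% in the second, and at most 0.454% in every other library; its call was lost without treated wild-type replicate 1, and without the first P150_KO library the site was under 1% and not tested. P150_KO also read 7.52% at 18136283 in the second treated library and 0.571% in the first. Without treated P150_KO replicate 1 the count was 19, and with only the 2 groups in the fit it was 15.

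Treated ADAR1_NULL cells had 0 higher and 31 lower of 42 members tested, 26 of 34 in Dnajc1 and 5 of 8 in Dnajc18, beside 69.5% of all sites. Both libraries had 0 edited reads at Dnajc1 18136284, a difference of -21.4 ± 2.77 points from wild type (adjusted p = 0.000884, edgeR). At 18137001 they read 0.554% and 0.826%, a difference of -25.6 ± 9.51 points (adjusted p = 0.00221, edgeR). At 18137021 the values were 0.664% and 0.0%, and the difference was -18.3 ± 3.35 points (adjusted p = 0.000657, edgeR). Each of these calls held without any 1 library. The count was 15 without treated ADAR1_NULL replicate 2 and 19 with only the 2 groups in the fit.

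Without interferon few members could be tested, because most were under 1%. ADAR2_NULL was lower than wild type at 1 of 17 members, beside 13.6% of all sites. That site was Dnajc1 18136288, whose levels are given above, by -10.4 ± 2.32 points (adjusted p = 0.0374, edgeR); it was not called when either untreated wild-type library or ADAR2_NULL replicate 2 was left out, nor with only the 2 groups in the fit, within 0.0113 to 0.18 over all alternatives. STAT2_NULL differed at 0 of 22 members by edgeR, with 4 at an unadjusted p under 0.05 and 1 called by limma, beside 2.95% of all sites.

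P150_KO was lower than wild type at 6 of 17 members in untreated cells, 5 in Dnajc1 and 1 in Dnajc18, beside 33.1% of all sites. Without 35834187, whose wild-type level was known, it was lower at 5 of 16 members, all in Dnajc1. At Dnajc1 18136282 it read 0.0% and 0.475%, a difference of -11.9 ± 1.58 points (adjusted p = 0.0283, edgeR), and at 18136283 it read 0.0% in both libraries, a difference of -5.18 ± 1.84 points (adjusted p = 0.0131, edgeR). Both calls were lost when either untreated P150_KO library was left out, the former also without wild-type replicate 2. Dnajc18 35834187 was lower by -6.71 ± 1.23 points (adjusted p = 0.0138, edgeR), and this call too was lost when either P150_KO library was left out. Over members, 1 call was left without untreated P150_KO replicate 1, 0 without replicate 2, and 2 with only the 2 groups in the fit.

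ADAR1_NULL was lower at 6 and higher at 1 of 17 members in untreated cells, beside 49.2% of all sites. The lower sites included Dnajc1 18136282 and 18136288, at 0.0% and 0.973% and at 0.644% and 0.484%. The higher one was Dnajc1 18136982, which read 3.14% and 5.39% in untreated ADAR1_NULL cells against 0.226% and 0.0873% in wild type, a rise of 4.11 ± 1.13 points (adjusted p = 0.00647, edgeR) called without any 1 library. Treated ADAR1_NULL cells read 0.888% and 0.206% at this site, and both P150_KO groups at most 0.431%. The member count was 1 without untreated ADAR1_NULL replicate 1 and 2 with only the 2 groups in the fit. All comparisons against wild type within a treatment use the same wild-type libraries and are not independent of each other.

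The response to interferon of each line was set against that of wild type by an interaction term in the same edgeR fit. In STAT2_NULL 5 of 37 members had a smaller response, beside 13.8% of all sites. In P150_KO 3 of 38 did, beside 17.2%, and in ADAR1_NULL 4 of 33, beside 12.3%. The largest of these was at Dnajc1 18136982 in ADAR1_NULL, -23.8 ± 1.88 points (adjusted p = 0.00168, edgeR), called without any 1 library. Dnajc1 18137016 was called in all 3 lines, but its treated wild-type libraries read 1.23% and 14.0%. With only the 4 groups in the fit the 3 counts were 0, 0 and 1, and by limma 11, 11 and 14. Without untreated wild-type replicate 1, STAT2_NULL replicate 1 after treatment or its untreated replicate 2, the STAT2_NULL count was 2, 3 and 3. The P150_KO count was 0 without treated or untreated wild-type replicate 2 or treated P150_KO replicate 1, and 1 when either untreated P150_KO library was left out. The ADAR1_NULL count was 2 without treated ADAR1_NULL replicate 1, untreated replicate 1 or treated wild-type replicate 2, and 1 without untreated ADAR1_NULL replicate 2 or untreated wild-type replicate 2.

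Sites of other genes whose group means were closest to those of the 2 leading sites were ranked by root mean square difference over the 10 groups, among sites with at least 50 reads in all libraries. For Dnajc1 18136990 they lay in Atl3, Tbc1d24, Gabpb2, Mdc1 and Ankrd28, with differences of 3.11 to 3.67 points. The Atl3 site, at chromosome 19, 7612605, read 35.0% in treated wild type and 27.1% in treated ADAR2_NULL. For Dnajc18 35834187 they lay in Gla, Nrp1, Coq3, Cds2 and Nup155, with differences of 3.74 to 5.38 points. The Gla site, at chromosome X, 131123085, read 73.2% in treated wild type and 48.4% in treated ADAR2_NULL. All 10 sites are annotated as 3' UTR sites. Pearson's r over the 10 group means was 0.973 to 0.989 for the former and 0.982 to 0.990 for the latter, as a description of means that share libraries.

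The wider chaperone pathway was looked up in a fixed list of other J-domain proteins, HSP70 and HSP90 chaperones, small heat shock proteins, chaperonins and quality control factors of the endoplasmic reticulum. Of its genes 41 have a listed site, but 0 of them has a site under the coverage rule, and 0 sites were tested in any of the 17 comparisons. Among the chaperone genes on this list and the 2 described here, only Dnajc1 and Dnajc18 were thus read by the assay.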

How the data were processed

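Per the labels, total RNA of 20 libraries was amplified by multiplex RT-PCR, and the products of a sample were pooled and indexed with a 15-cycle PCR. Per the submitters' processing notes, BWA, SAMtools and the mm9 build were used; the sources used here do not give versions, filters, how sites were chosen, or whether coordinates count from 0 or 1. The authors deposited 1 table per library, with raw counts of reads and of edited reads per site and, as a fraction, the edited share; levels were recomputed from the counts. Amplicon reads carry no molecular identifiers, so the counts overstate the number of molecules read and the intervals cover counting error only.

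Edited and unedited counts of all sites were fitted in edgeR 4.0.16 (R 4.3.3; modelMatrixMeth, glmQLFit, glmQLFTest, two-sided) with all 20 libraries and 1 coefficient per group, and p-values were adjusted over all sites tested. The test took sites with 50 or more reads in each library compared whose mean level over those libraries was 1% or more. Differences are in percentage points with their standard error from the 2 libraries of each group; the test itself is on the odds. On data simulated for interferon in wild type over 1196 sites, 40 of 100 sites with an odds ratio of 4, 91 of 100 with 10 and 11 of 996 unchanged ones were called. The simulated libraries had 1 fixed spread setting for all sites, which was not taken from the data. In the data, chi-square per degree of freedom between wild-type libraries was 12.5 untreated and 26.8 treated. The simulated rates may therefore not hold for this comparison. Alternatives were other coverage and level minimums, limma 3.58.1 on log ratios with 0.5 reads added, the compared groups alone, a replicate block, leaving out each library, and, added after the data were seen, halved read counts.

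Sites named with values were those called in any comparison, with the 10 highest in treated wild type preferred in each gene; the leading site of a gene is its highest in treated wild type. The members and the gene lists were chosen with earlier results of these data known. Libraries of 1 group did not agree within sampling noise in any group (chi-square per degree of freedom 2.44 to 26.8), so no pair was taken as a repeat of 1 library; since PCR reads are not independent molecules, this does not show that they are separate replicates. Over 604 sites, the deviations of same-numbered libraries of different groups correlated at -0.161 to 0.145, above 0.1 in 2 of 45 pairs. The numbers were thus not shown to pair libraries, which does not exclude a pairing. No sequence is printed, since no mm9 genome was used here.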

Additional observations from a re-analysis of the deposited data

Results flagged for a closer look

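At 12 site and line combinations the interferon response differed from that of wild type by the interaction term in edgeR's fit; each value is the line's response minus the wild-type response, in percentage points. In STAT2_NULL these were Dnajc1 18136242 (-19.6 points), 18136982 (-17.9), 18137015 (-10.2) and 18137016 (-8.48), and Dnajc18 35834135 (-10.2). In P150_KO they were Dnajc1 18137021 (-18.2) and 18137016 (-7.94) and Dnajc18 35834188 (-7.96). In ADAR1_NULL they were Dnajc1 18136982 (-23.8), 18137016 (-7.89), 18137022 (-6.28) and 18136922 (-3.78). Of these, 18136982 in ADAR1_NULL was called without any 1 library that was left out. The site at 18137016 in STAT2_NULL was called in the 7 fits that tested it. Without the second treated wild-type library it was under the 1% minimum and not tested. That library read 14.0% there and the first 1.23%, so leaving out libraries could not check the call against it. By contrast, 18136922 in ADAR1_NULL was called in 0 of 6 fits. The 3 lines are set against the same wild-type libraries. Causes were not tested.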

How the results depend on the processing

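Values here are numbers of Dnajc1 and Dnajc18 sites called in either direction, beside the number in the report. For interferon against untreated, wild type (20 in the report) gave 10 with a minimum level of 5% and 3 with only the compared groups in the fit, and 12 to 18 leaving out each library; ADAR2_NULL (16) gave 10 to 15 and P150_KO (0) 0 to 2 leaving out each library. In untreated cells, ADAR2_NULL against wild type (1) gave 0 with the groups alone and 0 to 1 leaving out each library. STAT2_NULL (0) gave 1 with a coverage minimum of 100, 2 with no minimum level, 1 with a minimum level of 5%, 1 by limma and 1 with halved counts. P150_KO (6) gave 2 at 5%, 2 with the groups alone and 0 to 5 leaving out each library; ADAR1_NULL (7) gave 2, 2 and 1 to 7.

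In treated cells, ADAR2_NULL against wild type (0) gave 2 by limma. With a minimum level of 5%, the groups alone and each library left out, STAT2_NULL (21) gave 11, 12 and 7 to 19, P150_KO (32) gave 16, 15 and 19 to 32, and ADAR1_NULL (31) gave 16, 19 and 15 to 29. The differences in response, under the minimum of 5%, limma, the groups alone and each library left out, were 2, 11, 0 and 2 to 7 for STAT2_NULL (5), 0, 11, 0 and 0 to 3 for P150_KO (3) and 1, 14, 1 and 1 to 3 for ADAR1_NULL (4). Fewer members were tested under the minimum of 5%, which left none in the interferon comparisons of P150_KO and ADAR1_NULL; the cause of the other changes was not tested. A comparison without 1 library assumes that the lone library varies like the other groups.

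With a replicate block the counts were 20 for interferon in wild type, 18 in ADAR2_NULL and 22 for treated STAT2_NULL against wild type, and the numbers were not shown to pair libraries. Of 146 called site differences, limma called all 146, the block 143, the groups alone 67, and 50 were called in every fit without 1 library that tested them; none of these alternatives reversed a called direction. The level over Dnajc1 sites in treated wild type was 4.58% unweighted, against 5.66%. Over all Dnajc18 sites with 20 reads it was 8.09% in treated wild type and 3.46% in treated ADAR2_NULL, against 11.1% and 4.72%; with a minimum of 100 reads no Dnajc18 site was left. Coverage of 32 to 1146 reads limits levels under about 1%.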

Other observations

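The site at Dnajc1 18136982 was unusual in untreated ADAR1_NULL cells. Its 2 libraries read 3.14% and 5.39%, above both untreated wild-type libraries, while treated ADAR1_NULL libraries read 0.888% and 0.206%. Its neighbour at 18136978 read 0.286% and 0.469% in the same untreated ADAR1_NULL libraries. In treated P150_KO cells 4 members, all in Dnajc1, reached 5% in a library, and none did in both; this limit was chosen after the values were seen. The first library read 17.7% at 18137060 and 5.19% at 18136334, where the second read 0.431% and 1.22%. The second read 7.52% at 18136283 and 5.39% at 18136990, where the first read 0.571% and 0.0%.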
